A study of Mus musculus with 11 samples.

Results

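The genes described here take long and medium-chain fatty acids into the tubule cell, activate them, carry them into mitochondria and oxidise them there, or make and use ketone bodies. They are a list of 45 genes of mitochondrial fatty acid and ketone metabolism, chosen by function and not by a threshold on any measured value. Earlier results of these data were known when the list was chosen. Of the 45 genes, 41 had a probe set annotated with their symbol alone and are the genes measured here, out of 22180 genes with such a probe set. Where a gene had several, the probe set with the highest mean over all arrays was kept. Acsl3, Acsm3 and Cpt1b each have a probe set only in common with another gene and were not analysed, and Acsl1 was not matched to a probe set.

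The samples are total RNA from S3 proximal tubules, the straight end of the proximal tubule in the outer stripe of the kidney, of 129/SvEv mice on 11 whole-transcript arrays. Tubules from THP -/- mice gave 5 arrays, and tubules from WT mice gave 6. THP is Tamm-Horsfall protein, also called uromodulin, the product of Umod in the thick ascending limb, and the labels do not say how the gene was disrupted. Batch 1 held 3 knockout and 5 wild-type arrays, and batch 2 held 2 knockout arrays and 1 wild-type array. The labels give no age, sex or treatment, and nothing states that every array came from a different mouse, so the spread between arrays may be partly technical.

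Proximal tubule cells make most of their ATP by oxidising fatty acids, and they use little glucose as a fuel. Fatty acids enter through carriers such as CD36, are bound by fatty acid binding proteins or stored in lipid droplets, and are joined to coenzyme A by acyl-CoA synthetases. The carnitine shuttle takes long chains across the inner mitochondrial membrane, and a spiral of dehydrogenase, hydratase, dehydrogenase and thiolase reactions then shortens them to acetyl-CoA. The nuclear receptor PPAR-alpha with its coactivator PGC-1alpha drives many of these genes, and S3 cells also take up and burn ketone bodies.

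Promoter sequences are shown for the member with the smallest p on the side of higher signal in the steps of uptake, activation, carnitine shuttle and oxidation, and for the stretch that lies between the start sites of the trifunctional protein genes. Each is the 250 bases before the start site, from RefSeq's GRCm38.p6, which is the genome of another strain than the mice studied, read 5′ to 3′ on the gene's strand. Capitals mark the nuclear receptor motif AGGTCA and the GC box GGGCGG, each searched on both strands, where they show as TGACCT and CCGCCC. These 2 motifs do not overlap each other in the windows shown.
Plin2, chr4:86670060-86670309, minus strand: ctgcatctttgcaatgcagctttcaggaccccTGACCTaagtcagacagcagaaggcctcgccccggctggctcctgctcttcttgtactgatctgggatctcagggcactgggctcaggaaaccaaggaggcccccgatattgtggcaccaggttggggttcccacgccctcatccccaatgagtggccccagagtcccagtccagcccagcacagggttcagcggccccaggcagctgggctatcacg
Acsl5, chr19:55253119-55253368, plus strand: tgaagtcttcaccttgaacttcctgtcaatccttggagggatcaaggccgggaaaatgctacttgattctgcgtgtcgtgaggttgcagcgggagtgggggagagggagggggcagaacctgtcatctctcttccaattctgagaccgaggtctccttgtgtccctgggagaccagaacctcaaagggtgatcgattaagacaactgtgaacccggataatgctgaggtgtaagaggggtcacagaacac
Cpt2, chr4:107923590-107923839, minus strand: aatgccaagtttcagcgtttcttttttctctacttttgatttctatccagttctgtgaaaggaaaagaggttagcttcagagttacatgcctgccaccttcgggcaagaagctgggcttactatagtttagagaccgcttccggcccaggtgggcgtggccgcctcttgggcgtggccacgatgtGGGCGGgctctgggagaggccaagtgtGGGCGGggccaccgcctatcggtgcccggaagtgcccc
Acadl, chr1:66863310-66863559, minus strand: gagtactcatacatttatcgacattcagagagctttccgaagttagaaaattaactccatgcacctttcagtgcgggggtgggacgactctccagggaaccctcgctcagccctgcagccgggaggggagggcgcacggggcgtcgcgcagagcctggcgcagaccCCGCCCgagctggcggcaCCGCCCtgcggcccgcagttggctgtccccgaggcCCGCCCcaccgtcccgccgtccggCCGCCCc
Hadhb, chr5:30155003-30155252, plus strand: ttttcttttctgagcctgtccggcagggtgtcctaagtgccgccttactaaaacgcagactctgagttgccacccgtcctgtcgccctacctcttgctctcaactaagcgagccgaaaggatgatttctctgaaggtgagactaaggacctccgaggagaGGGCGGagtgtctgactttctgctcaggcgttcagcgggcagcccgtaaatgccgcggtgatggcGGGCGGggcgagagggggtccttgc

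The Plin2 window holds 1 receptor motif, 218 bases before the start, and no GC box. Cpt2 holds 2 GC boxes, Acadl 4 and the Hadhb window 2, whereas the Acsl5 window holds neither motif. Hadha and Hadhb, the subunits of the trifunctional protein, are transcribed away from each other from starts 272 bases apart, so the Hadhb window is also the upstream sequence of Hadha. Among all the genes listed, 37 of 45 had an entry in the RefSeq table, with 43 windows. The receptor motif was in 9 of these 43 windows (20.9%), beside 14.0% of 32851 windows of all genes. The GC box was in 20 of the 43 (46.5%), beside 32.7% of all windows. These matches are letters in a window and were not tested for binding.

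Umod read 3.68, 4.26, 4.67, 4.55 and 5.27 in knockout replicates 1 to 5, against 5.80, 5.27, 6.20, 5.53, 5.27 and 6.74 in wild-type replicates 1 to 6, on the log2 scale used throughout. Apart from replicate 5, which read the same as wild-type replicates 2 and 5, the knockout arrays lay below all of wild type. The difference was -1.52 ± 0.24 (SE; limma adjusted p = 0.281, exact permutation p = 0.00595), and whether the probe set lies in the deleted part is not known here. Of 10 markers of the S3 segment 9 lay above the median probe set of each array in every array. So did 10 of 12 markers of the S1 and S2 segments and 7 of 8 of the thick ascending limb. The same held for 8 of 12 markers of the distal tubule and collecting duct, so this count does not set S3 apart. Knockout replicate 4 and wild-type replicate 4 lay at opposite ends of the first principal component of the 22180 genes, with 1 probe set each. This component held 26% of the variance.

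In total, 30 of the 41 measured members had a positive log2 difference between knockout and wild-type arrays with batch as a term, and 11 a negative one. No member passed an adjusted p of 0.05 (limma with Benjamini-Hochberg adjustment over 41345 probe sets), where 0% of all probe sets passed and 2546 had an unadjusted p under 0.05. The adjusted p of the members ran from 0.595 to 0.997. At an unadjusted p under 0.05, 6 members were on the side of higher signal in knockout, Plin2, Fabp3, Acsl5, Cpt2, Acadl and Acat1, and 1 was on the side of lower signal, Acaa2. Over all genes 3.64% reached that p on the higher side and 2% on the lower side. The median log2 difference of the members was 0.15, beside 0.01 for all genes, and 73.2% of members were positive, beside 53.4% of all genes. Members read brighter than most genes, with 34 of 41 above each array's median in every array, beside 9868 of 22180 genes. With probe sets of low mean signal left out, 71.1% of 38 members and 59.9% of all remaining genes were positive. The medians were then 0.15 and 0.05. The median of the 41 members was 0.06 after quantile normalization and 0.07 without knockout replicate 3. It was 0.09 without knockout replicate 4 and wild-type replicate 4 together.

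**Figure D1:**
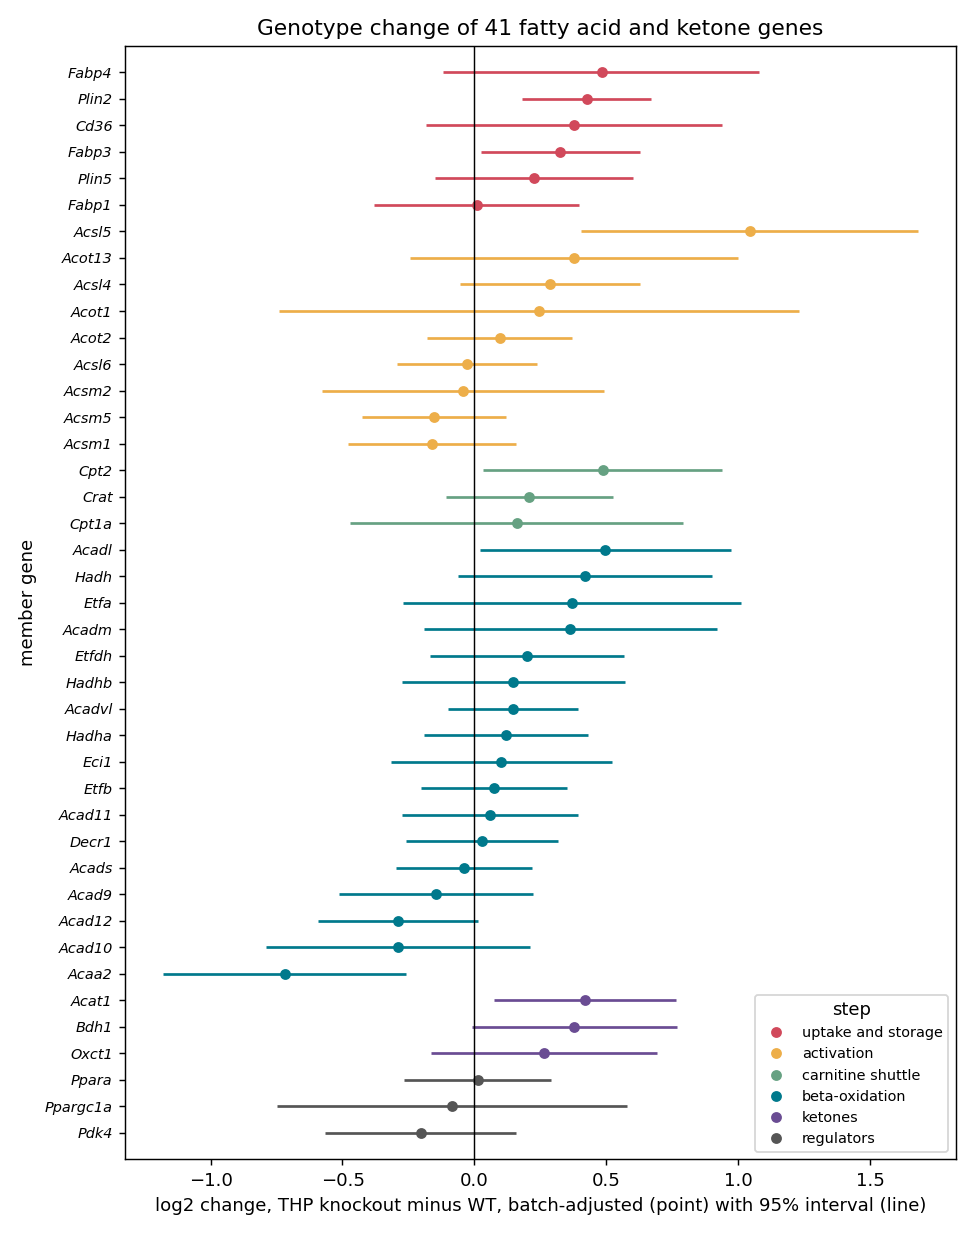
Batch-adjusted log2 change of each of the 41 measured members, knockout minus wild type, on the horizontal axis, with genes down the page by step. Points are the limma estimates and lines their 95% intervals. The intervals of 7 members leave out 0, those of Acsl5, Plin2, Fabp3, Cpt2, Acadl and Acat1 to the right and that of Acaa2 to the left.

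All 6 genes of uptake and storage had positive differences, with a median of 0.35. Plin2, which coats cytosolic lipid droplets, read 4.62, 4.90, 4.64, 5.19 and 5.15 in knockout replicates 1 to 5, against a lowest of 4.14, a median of 4.30 and a highest of 4.73 in the 6 wild-type arrays. Within each batch every knockout array lay above every wild-type array, and over the batches together only wild-type replicate 6, the batch 2 array, reached into the knockout range. The log2 difference was 0.43 ± 0.11 (SE), a 1.34-fold higher signal, with a 95% interval from 0.18 to 0.67. It was 0.42 within batch 1 and 0.44 within batch 2. The limma adjusted p was 0.595, and a two-sided exact permutation test of genotype within batches gave p = 0.00595, the smallest its 168 arrangements allow, among the 41 members tested.

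Fabp3, a fatty acid binding protein best known from heart, read 7.43, 7.38, 7.28, 7.19 and 7.41 in the knockout arrays, against a lowest of 6.67, a median of 7.02 and a highest of 7.30 in wild type. The knockout arrays sat close together, and 2 wild-type arrays reached their range. The difference was 0.33 ± 0.14 (adjusted p = 0.786, exact permutation p = 0.0357), or 0.34 within batch 1 and 0.28 within batch 2. A second Fabp3 probe set was at -0.06, and the mean of both was at 0.13.

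Fabp4, the binding protein of adipocytes and of capillary endothelium, read 4.25, 4.33, 4.98, 5.90 and 4.28 in knockout arrays, against a lowest of 3.79, a median of 4.22 and a highest of 4.46 in wild type. Knockout replicates 3 and 4 stood above all other arrays, and the other 3 knockout arrays lay within the wild-type range. Its difference of 0.48 ± 0.27 (adjusted p = 0.826, exact permutation p = 0.214) was 0.30 without knockout replicate 4. Of 10 endothelial markers 9 were positive, with a median difference of 0.08 and list means of 4.50 to 4.89 in knockout and 4.50 to 4.71 in wild-type arrays. Of 5 adipocyte markers 2 were positive and 0 lay above the median of every array. The part of other cells in the Fabp4 signal was not tested.

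Cd36, the membrane carrier of long-chain fatty acids, ran from 9.07 to 10.32 in knockout and from 8.71 to 9.71 in wild-type arrays, with a difference of 0.38 ± 0.25. Plin5, which ties lipid droplets to mitochondria, was at 0.22 ± 0.17, with 0.35 within batch 1 and -0.12 within batch 2. Fabp1, the liver-type binding protein, had means of 3.14 in knockout and 3.06 in wild type, below the median probe set of every array, and was at 0.01 ± 0.18. Fewer tubule cells and less RNA per cell cannot be told apart in such bulk samples, here and below.

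**Figure D2:**
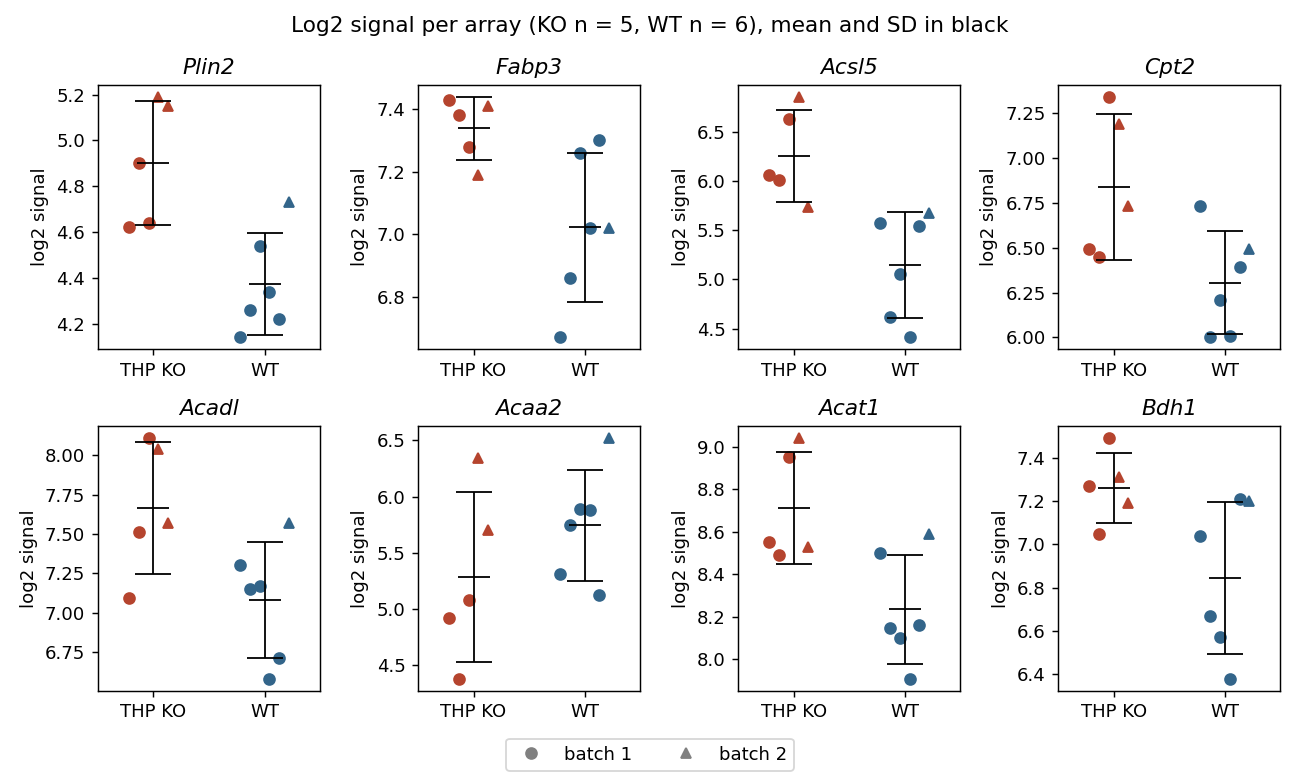
Log2 signal of 8 members in each array, knockout left of wild type, each gene on its own axis. Circles are batch 1 and triangles batch 2, and black bars are the mean and SD (n = 5 knockout, n = 6 wild type). The groups are apart only for Acsl5, and Acaa2 alone of these genes has its knockout mean below its wild-type mean.

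Among the activating enzymes and the thioesterases that undo activation, 5 of 9 measured genes were positive and 4 negative, with a median of 0.10. Acsl5, a long-chain acyl-CoA synthetase of the mitochondrial outer membrane and the endoplasmic reticulum, read 6.06, 6.01, 6.64, 6.86 and 5.74 in knockout arrays, against a lowest of 4.41, a median of 5.30 and a highest of 5.68 in wild type. The groups did not overlap, although knockout replicate 5, at 5.74, and wild-type replicate 6, at 5.68, both of batch 2, were close. It was 1 of 41 members whose groups did not overlap with knockout above, beside 0.433% of all genes, and no member had knockout below, beside 0.194%. The log2 difference was 1.04 ± 0.29 (SE), or 2.06-fold, with a 95% interval from 0.40 to 1.68, and it was 1.19 within batch 1 and 0.62 within batch 2. The limma adjusted p was 0.664 and the exact permutation p 0.0179.

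Acsl4, a synthetase that prefers arachidonic acid, read 3.48, 3.54, 3.72, 4.46 and 3.65 in knockout, against a lowest of 3.27, a median of 3.44 and a highest of 3.48 in wild type. Its knockout values were at or above every wild-type value, but both group means lay below the median of every array, so no fold is given. The difference of 0.29 ± 0.15 had an adjusted p of 0.826 and an exact permutation p of 0.107, and it was 0.18 without knockout replicate 4. Acsl6, another long-chain synthetase, known from brain, was at -0.03 ± 0.12.

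The medium-chain synthetases Acsm1, Acsm2 and Acsm5, which kidney and liver cells hold in their mitochondria, had negative differences, none with an unadjusted p under 0.05. Within batch 2, Acsm1 was at -0.255, but Acsm5 was at 0.085 and Acsm2 at 0.395. Their relative Acsm4, outside the list, was at 0.15 ± 0.10, with both group means below the median of every array. Acsm1 read 7.61, 7.52, 7.87, 7.82 and 7.81 in knockout, against a lowest of 7.36, a median of 7.88 and a highest of 8.11 in wild type, a difference of -0.16 ± 0.145 (adjusted p = 0.880, exact permutation p = 0.274), which was -0.26 after quantile normalization with an unadjusted limma p of 0.0344. Acsm5 read 7.14, 7.07, 6.89, 7.26 and 7.37, against a lowest of 7.12, a median of 7.19 and a highest of 7.53, a difference of -0.15 ± 0.12 (adjusted p = 0.870, exact permutation p = 0.185), which was -0.09 without knockout replicate 3. The groups overlapped for both. Acsm2 was at -0.04 ± 0.24, with an interval from -0.58 to 0.49. These genes are close relatives in 1 family, so their probe sets may share signal.

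The thioesterases differed in how far they varied. Acot13, a small mitochondrial thioesterase, read 6.95, 7.64, 8.38, 7.97 and 7.52 in knockout, against a lowest of 6.75, a median of 7.32 and a highest of 7.94 in wild type, a difference of 0.38 ± 0.28 (adjusted p = 0.860, exact permutation p = 0.268). It was 0.12 without knockout replicate 3 and 0.61 without knockout replicate 1. Acot1, the cytosolic enzyme and a known PPAR-alpha target, ran from 4.97 to 7.18 in knockout and from 5.01 to 6.47 in wild type, a span of 2.21 over all arrays. Acot2, its near-identical mitochondrial relative, spanned only 0.52, from 6.14 to 6.56 in knockout and from 6.04 to 6.42 in wild type. Their differences were 0.24 ± 0.45 and 0.10 ± 0.125, and because of their likeness their signals may not be fully separate.

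All 3 measured genes of the carnitine shuttle had positive differences. Cpt2, the inner-membrane enzyme that returns acyl groups to coenzyme A, read 6.49, 6.45, 7.34, 7.19 and 6.73 in knockout, against a lowest of 6.0, a median of 6.30 and a highest of 6.73 in wild type. Knockout replicates 3 and 4 lay above every wild-type array and the other 3 within or at the edge of the wild-type range. The difference was 0.49 ± 0.21, or 1.40-fold, with 0.49 within batch 1 and 0.47 within batch 2 (adjusted p = 0.788, exact permutation p = 0.0655). It was 0.29 without knockout replicate 3.

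Cpt1a, the outer-membrane enzyme that malonyl-CoA inhibits and that sets the pace of the pathway, read 6.6, 6.68, 7.78, 7.92 and 7.30 in knockout, against a lowest of 6.39, a median of 7.02 and a highest of 7.47 in wild type. The knockout arrays split, with replicates 3 and 4 above the wild-type range and the other 3 inside it. Its difference of 0.16 ± 0.29 (adjusted p = 0.944, exact permutation p = 0.595) was 0.04 within batch 1, 0.49 within batch 2 and -0.07 without knockout replicate 3. Crat, which moves short acyl groups onto carnitine, read 6.05, 6.03, 6.32, 6.18 and 6.07 in knockout. Wild type had a lowest of 5.61, a median of 6.07 and a highest of 6.21. The Crat difference of 0.21 ± 0.14 (adjusted p = 0.851, exact permutation p = 0.232) was 0.10 without wild-type replicate 6. A second Crat probe set was at 0.11 ± 0.20, with -0.04 within batch 1 and 0.53 within batch 2.

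Of the 17 genes of beta-oxidation 12 were positive and 5 negative, with a median of 0.10, and the genes with the smallest p lay on opposite sides. Acaa2, the mitochondrial thiolase of the last step, read 4.92, 4.38, 5.08, 6.34 and 5.70 in knockout, against a lowest of 5.12, a median of 5.82 and a highest of 6.52 in wild type. Within batch 1 the 3 knockout arrays lay below all 5 wild-type arrays, and within batch 2 both lay below the only wild-type array. Batch 2 arrays read high in both genotypes, so the groups overlap when batches are pooled. The difference was -0.72 ± 0.21, a 1.65-fold lower signal, with a 95% interval from -1.18 to -0.26, an adjusted p of 0.674 and an exact permutation p of 0.0119. It was -0.80 within batch 1, -0.50 within batch 2 and -0.46 in the model without a batch term, where its unadjusted p no longer lay under 0.05.

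Acadl, the long-chain acyl-CoA dehydrogenase that starts the spiral, read 7.09, 7.51, 8.11, 8.04 and 7.57 in knockout, against a lowest of 6.58, a median of 7.16 and a highest of 7.57 in wild type. Knockout replicates 3 and 4 were above the wild-type range, replicate 5 equalled its top and replicates 1 and 2 lay inside it. The difference was 0.50 ± 0.22, or 1.41-fold (adjusted p = 0.797, exact permutation p = 0.0714), with 0.59 within batch 1 and 0.24 within batch 2, and it was 0.29 without knockout replicate 3. Hadh, the short-chain hydroxyacyl-CoA dehydrogenase, read 7.91, 8.05, 8.71, 8.66 and 8.05 in knockout, against a lowest of 7.38, a median of 7.84 and a highest of 8.36 in wild type. Its difference was 0.42 ± 0.22 (adjusted p = 0.825, exact permutation p = 0.131), again with replicates 3 and 4 on top, and 0.26 without knockout replicate 3.

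Acadm, the medium-chain dehydrogenase, read 10.99, 10.84, 11.61, 11.34 and 10.93 in knockout, against a lowest of 10.06, a median of 10.74 and a highest of 11.45 in wild type, a difference of 0.36 ± 0.25 (adjusted p = 0.851, exact permutation p = 0.232). Leaving out knockout replicate 3 gave 0.19, and leaving out wild-type replicate 4 gave 0.24. The short-chain and very-long-chain dehydrogenases Acads and Acadvl were at -0.04 ± 0.12 and 0.15 ± 0.11. For these 2 genes the 95% intervals, from -0.30 to 0.22 and from -0.10 to 0.39, leave out a 2-fold difference either way. Intervals of 35 of the 41 members lay within 1 log2 unit of 0.

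Acad12, an acyl-CoA dehydrogenase, read 4.48, 4.21, 4.51, 3.84 and 3.68 in knockout, against a lowest of 4.27, a median of 4.54 and a highest of 4.85 in wild type. The 2 batch 2 knockout arrays were below every other array. Both values also lay below the median probe set of their own array, 3.84 against 3.85 and 3.68 against 3.95. Its difference was -0.29 ± 0.14 (adjusted p = 0.820, exact permutation p = 0.0595), with -0.21 within batch 1 and -0.51 within batch 2. Acad10, also at -0.29 but with an SE of 0.23, was at -0.56 within batch 1 and 0.48 within batch 2. Acad9, which also helps to assemble respiratory complex I, was at -0.15 ± 0.17, and Acad11, which takes longer chains, at 0.06 ± 0.15.

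The trifunctional protein genes Hadha and Hadhb, whose shared upstream stretch is shown above, were at 0.12 ± 0.14 and 0.15 ± 0.19, with the Hadhb probe set below the median of every array in both group means. Electron transfer flavoprotein passes electrons from the dehydrogenases to the respiratory chain. Its subunits Etfa and Etfb were at 0.37 ± 0.29 and 0.07 ± 0.13, and its oxidoreductase Etfdh at 0.20 ± 0.17. Etfa spanned 1.98 over all arrays, from 6.99 to 8.12 in knockout and from 6.14 to 7.55 in wild type, whereas Etfb spanned 0.64. The auxiliary enzymes Eci1 and Decr1, needed for unsaturated chains, were at 0.10 ± 0.19 and 0.03 ± 0.13.

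All 3 ketone body genes had positive differences, with a median of 0.38. Acat1, the mitochondrial acetoacetyl-CoA thiolase, read 8.55, 8.49, 8.95, 9.04 and 8.53 in knockout, against a lowest of 7.91, a median of 8.16 and a highest of 8.59 in wild type. Wild-type replicates 1 and 6 reached into the range of the 3 lower knockout arrays, and the other 4 wild-type arrays lay below the whole knockout group. The difference was 0.42 ± 0.16, or 1.34-fold, with a 95% interval from 0.08 to 0.76 (adjusted p = 0.761, exact permutation p = 0.0476), and it was 0.50 within batch 1 and 0.20 within batch 2.

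Bdh1, which interconverts acetoacetate and 3-hydroxybutyrate, read 7.27, 7.05, 7.49, 7.31 and 7.19 in knockout, against a lowest of 6.38, a median of 6.86 and a highest of 7.21 in wild type. The difference of 0.38 ± 0.18 (adjusted p = 0.815, exact permutation p = 0.0595) was 0.50 within batch 1 and 0.05 within batch 2. Oxct1, the enzyme by which tissues outside the liver use ketone bodies, read 8.07, 8.07, 8.35, 8.53 and 8.02 in knockout, against a lowest of 7.15, a median of 7.97 and a highest of 8.22 in wild type. Its difference was 0.26 ± 0.195 (adjusted p = 0.860, exact permutation p = 0.244), with 0.06 within batch 2 and 0.14 without wild-type replicate 4, and the groups overlapped for both genes.

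The regulators had no common side. Ppara, the nuclear receptor itself, read 6.47, 6.06, 6.17, 6.40 and 6.32 in knockout, against a lowest of 5.94, a median of 6.30 and a highest of 6.45 in wild type. The groups lay over each other, with a difference of 0.01 ± 0.13, an interval from -0.27 to 0.29, an adjusted p of 0.994 and an exact permutation p of 0.917. Pdk4, a PPAR-alpha target that shuts pyruvate out of the mitochondrial fuel supply, read 5.19, 4.54, 5.39, 5.83 and 5.53 in knockout, against a lowest of 5.17, a median of 5.29 and a highest of 5.73 in wild type, a difference of -0.20 ± 0.16 (adjusted p = 0.869, exact permutation p = 0.262). Without knockout replicate 2, the lowest array, it was -0.02.

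Ppargc1a, which encodes PGC-1alpha, read 3.84, 4.06, 4.36, 5.93 and 4.83 in knockout, against a lowest of 4.20, a median of 4.41 and a highest of 5.13 in wild type. Knockout replicate 4 was the highest of all arrays and knockout replicates 1 and 2 the lowest. The difference of -0.08 ± 0.30 (adjusted p = 0.975, exact permutation p = 0.827) joined -0.45 within batch 1 and 0.93 within batch 2, and it was -0.27 without knockout replicate 4.

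The members' mean differed between arrays of the same genotype. The mean of the 41 members, set against its wild-type mean, was -0.01, -0.04, 0.35, 0.56 and 0.18 in knockout replicates 1 to 5, and it was 0.17, -0.01, 0.01, -0.24, -0.11 and 0.18 in wild-type replicates 1 to 6. Knockout replicates 3 and 4 were thus high, wild-type replicates 4 and 5 low, and the remaining arrays of both genotypes lay between -0.04 and 0.18. Knockout replicate 4 held the highest value of 18 of the 41 members (43.9%), beside 13.0% of all genes, and wild-type replicate 4 the lowest value of 14 (34.1%), beside 14.6%. With both arrays left out, 4 members had an unadjusted p under 0.05 in place of 7, all 4 among those 7, with Cpt2, Acadl and Acat1 lost.

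**Figure D3:**
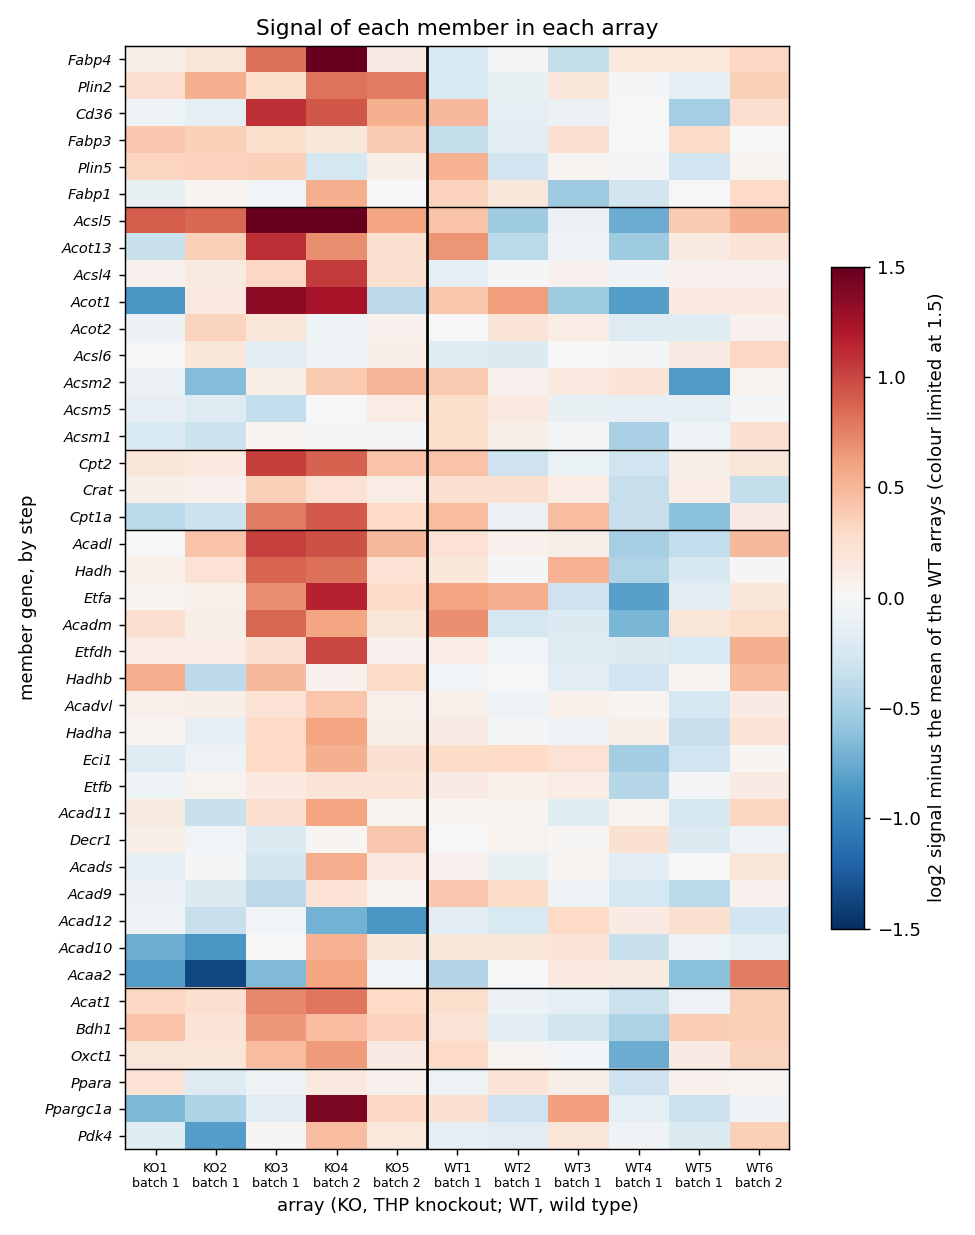
Log2 signal of each measured member (rows, by step) in each array (columns, knockout left of the thick line) minus the mean of the wild-type arrays. Red is above and blue below that mean, with colours limited at 1.5. Columns of knockout replicates 3 and 4 are red for most oxidation and shuttle genes, and that of wild-type replicate 4 is mostly blue.

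Within both batches 22 members (53.7%) were positive and 4 (9.76%) negative, beside 29.9% and 24.3% of all genes. The members' median difference was 0.15 within batch 1 and 0.17 within batch 2, where it rests on a single wild-type array.

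No segment marker passed the adjusted threshold, and the lists are given by signs, where 53.4% of all genes were positive. At an unadjusted p under 0.05, 3.64% of all genes were on the higher side and 2% on the lower side. Of 10 S3 markers 10 had positive differences with a median of 0.40, 2 of them at an unadjusted p under 0.05, and their list mean was 8.59 to 9.63 in knockout and 7.97 to 9.15 in wild-type arrays. Of 12 markers of the S1 and S2 segments 11 were negative, 2 of them at an unadjusted p under 0.05, with list means of 5.90 to 7.26 in knockout and 6.25 to 7.31 in wild-type arrays. Of 8 thick ascending limb markers 8 were positive, 1 of them at an unadjusted p under 0.05, with list means of 5.67 to 7.63 in knockout and 5.40 to 6.12 in wild-type arrays, the top being knockout replicate 4. Of 12 markers of the distal tubule and collecting duct 7 were positive, 1 of them at an unadjusted p under 0.05, with list means of 4.40 to 6.19 in knockout and 4.53 to 5.19 in wild-type arrays. Knockout replicate 4 was again the top, at 1.30 over the wild-type mean of that list, where the next array, wild-type replicate 3, was at 0.30. In that array the thiazide-sensitive transporter Slc12a3 read 9.08 and the water channel Aqp2 8.48, against highest wild-type values of 7.24 and 6.08. Against the wild-type mean, S3 markers were at 0.92 in knockout replicate 3, 0.61 in knockout replicate 4 and -0.74 in wild-type replicate 4, the arrays that are also high, high and low for the members. Wild-type replicate 1 was also high for both, with S3 markers at 0.43 and members at 0.17. Some other arrays did not go together in this way. Knockout replicate 2 had S3 markers at 0.56 and members at -0.04. Knockout replicate 5 had S3 markers at -0.12 and members at 0.18, and wild-type replicate 5 had them at 0.29 and -0.11. Thick ascending limb markers were at 0.21, -0.02, 0.56, 1.94 and 0.19 in knockout replicates 1 to 5. In wild-type replicates 1 to 6 these markers were at -0.04, 0.10, 0.10, -0.28, -0.30 and 0.42. The part of other segments in the members' differences was not tested.

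**Figure D4:**
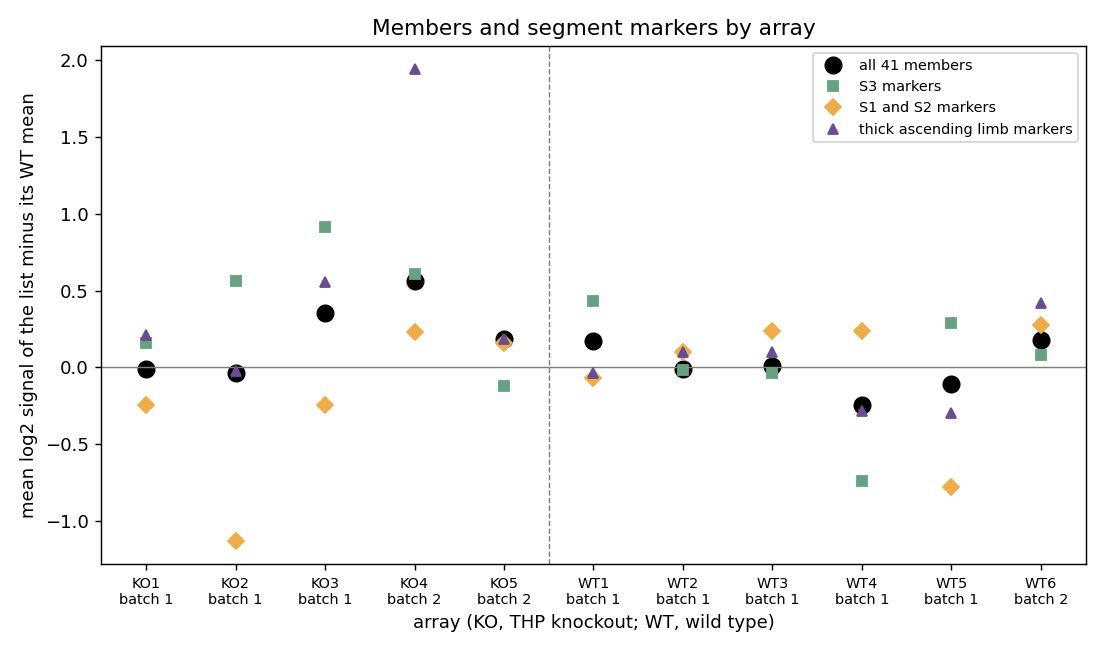
Mean log2 signal of the 41 members and of 3 marker lists in each array, minus the wild-type mean of the same list, with knockout left of the dashed line. Members (black) lie between -0.24 and 0.56, and knockout replicate 4 is also at 1.94 for thick ascending limb markers.

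Other genes of the same pathway, outside the list, were counted in 6 groups, and 0 passed over all probe sets. Over all genes 53.4% were positive, 3.64% had an unadjusted p under 0.05 on the higher side and 2% on the lower side. Of 18 genes of uptake, carriers and lipolysis 12 were positive, with 2 at an unadjusted p under 0.05 on the higher side and 1 on the lower. The monoglyceride lipase Mgll was at 0.48 ± 0.18, while Plin3, another coat protein of lipid droplets, was at -0.60 ± 0.21, opposite to Plin2. Of 10 other activating enzymes and thioesterases 9 were positive, with a median of 0.05, led by the cytosolic acetyl-CoA synthetase Acss2 at 0.25 ± 0.14. Of 14 other genes of acyl-CoA breakdown and handling 11 were positive, 2 of them at an unadjusted p under 0.05. Those were the isobutyryl-CoA dehydrogenase Acad8 at 0.33 ± 0.13 and Nudt19, a coenzyme A hydrolase of peroxisomes and so outside mitochondrial oxidation itself, at 0.68 ± 0.28.

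Of 6 genes around malonyl-CoA, the product that holds back Cpt1a, 4 were positive. Fatty acid synthase Fasn was at 0.61 ± 0.23 and malonyl-CoA decarboxylase Mlycd at 0.43 ± 0.18, enzymes that use and remove malonyl-CoA. Of 8 genes of ketone synthesis and transport 3 were positive and 5 negative, with 1 on each side at an unadjusted p under 0.05. Aacs, which activates acetoacetate in the cytosol for lipid synthesis, averaged 7.12 ± 0.143 in knockout and 6.37 ± 0.253 in wild type (SD, n = 5 and n = 6) with no overlap. Its difference was 0.74 ± 0.15 (adjusted p = 0.366, exact permutation p = 0.00595), with 0.93 within batch 1 and 0.20 within batch 2. Oxct2b, a relative of Oxct1 known from testis, was on the other side at -0.40 ± 0.14 (adjusted p = 0.761, exact permutation p = 0.0238), with -0.54 within batch 1 and -0.015 within batch 2. Of 28 other regulators 15 were positive (53.6%, beside 53.4% of all genes) and 3 reached an unadjusted p under 0.05, all on the higher side. Among these the phosphatidate phosphatase Lpin2 was at 0.51 ± 0.16, also without overlap, and the transcription factor Nrf1 at 0.32 ± 0.13. Groups that did not overlap, with knockout above, made up 0.433% of all genes.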

How the data were processed

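Values are the deposited log2 signals of Affymetrix arrays, labelled with a whole-transcript kit per the labels' protocols. The submitters' processing notes name Partek 6.6 and RMA. RMA corrects background, equalises array distributions and summarises probe sets, which can shrink changes shared by many genes. Background and detection values, genome build and any batch correction are not given in the sources used here, and the 11 arrays limit the precision. Values ran from 0.79 to 14.08, with array medians of 3.85 to 4.01, so the deposited distributions were not fully equal. A further quantile normalization moved the members' median difference from 0.15 to 0.06. Correlations between arrays were 0.901 to 0.955, with no identical arrays.

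Platform annotation gave 23521 probe sets 1 symbol, 1814 several and 16010 none. Genotype and batch were fitted with limma 3.58.1 in R 4.3.3 (lmFit, eBayes, two-sided) on all 41345 probe sets, with Benjamini-Hochberg adjustment over all of them, 8 residual and 2.9 prior degrees of freedom. The fit was also run on simulated data with independent normal noise and no batch difference. That run says nothing of batch or of outlying arrays. Exact permutation tests exchanged genotype within batches (168 arrangements). Figures used matplotlib 3.10.9 in Python 3.11.15.

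Members, lists and settings were chosen with earlier results of these data known. Given in full were the 3 members with the smallest p per step, 5 for activation and beta-oxidation. For other pathway lists up to 2 genes per list were named. Alternatives varied the batch term, replicate block, dim probe sets, probe choice, normalization, variance model and each array left out. Leaving out both arrays at the ends of the first principal component was added after seeing the data.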

Additional observations from a re-analysis of the deposited data

Results flagged for a closer look

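Among 46 groups of array values examined (22 members given in full and the mean of all members, in each genotype), 2 held an array far from the rest of its group, and chance alone marks about 1 in 20 such groups. Acsl4 was at 4.46 in knockout replicate 4, where the next knockout array was at 3.72 and the lowest at 3.48. Oxct1 was at 7.15 in wild-type replicate 4, where the next wild-type array was at 7.85 and the highest at 8.22. Without knockout replicate 4 the Acsl4 difference was 0.18, and without wild-type replicate 4 the Oxct1 difference was 0.14.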

How the results depend on the processing

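For the 22 members given in full, 16 of 505 values under the alternatives changed sign. No member neared the adjusted threshold under any of them (lowest limma adjusted p 0.385), so staying above it says nothing of stability, and values that kept their sign could still move several-fold, as given beside the genes. Ppara was at -0.00867 in batch 1 alone, -0.0867 with the replicate block, -0.0507 after quantile normalization and -0.0584 with both arrays at the ends of the first principal component left out, a setting chosen after seeing the data. Ppargc1a was at 0.0857 with no batch term and 0.104 with batch as a random block. With the replicate block Cpt1a was at -0.26 and Crat at -0.0267. Leaving out 1 array at a time gave -0.0643 to 0.0755 for Ppara, -0.445 to 0.0764 for Ppargc1a and -0.0745 to 0.328 for Cpt1a. Probe sets at an adjusted p under 0.05 numbered 3 in batch 1 alone, 1 with 1 probe set per gene, 1 with the mean of a gene's probe sets, and 0 to 11 with 1 array left out. Members at an unadjusted p under 0.05 numbered 4 with the replicate block, 4 without both arrays at the ends of the component, and 4 to 9 with 1 array left out. The lowest was without wild-type replicate 4, where Cpt2, Acadl and Fabp3 were lost, Fabp3 with its difference still at 0.324. Acaa2 was lost without a batch term. Plin2 was lost with the replicate block, with its difference still at 0.407. The members' median difference was lowest with the replicate block, at 0.0533. The share of positive members ran from 56.1% with the replicate block to 82.9% without a batch term, beside 54.8% and 53.1% of all genes. It was 63.4% after quantile normalization, beside 52.5% of all genes. Same-numbered arrays correlated at -0.27 to -0.02 in their deviations from the group means, so the numbers were not taken as pairs. Causes of these shifts were not tested. With 11 arrays the median SE of a member was 0.17, and batch 2 held a single wild-type array.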
